A study of Drosophila melanogaster with 30 samples.

Results

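The comparison described here is the effect of an added Y chromosome, of either of 2 kinds, on RNA of the female larval central nervous system (CNS, the brain and ventral nerve cord) of Drosophila melanogaster. It uses the 6 CNS libraries among the 30 libraries of the series: 4 from females with an added Y and 2 from females without one. The 4 libraries are 2 of XXYohio and 2 of XXYcongo, females that carry a Y named Yohio or Ycongo beside their X chromosomes, and the other 2 libraries are of XX females. The labels put a caret between the X chromosomes of all 3 genotypes, a way of writing often used for chromosomes joined to each other, which the labels leave unexplained. All 6 came from female larvae in the third instar reared at 23 °C under a 14-hour light cycle. No age within that instar is labelled. The manipulation was genetic and no drug is labelled. RNA with poly(A) tails was sequenced. The labels name 2 biological replicates per genotype without saying whether these were separate cultures or pools, so p-values here cover the spread from library to library, which may be technical. Female whole body and ovary, with 6 libraries each in the same 3 genotypes from adults aged 2 days, are used only where the CNS is set against them.

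The Y chromosome of this fly is almost wholly repetitive heterochromatin. It carries few protein-coding genes, most of them used in making sperm, and it does not decide sex, so a female with an added Y develops as a female. The larval CNS holds neurons, glia and the dividing neuroblasts that build the adult brain. At the end of the third instar, pulses of the steroid ecdysone switch on a cascade of nuclear receptors and other transcription factors, and tissues leave larval growth for metamorphosis.

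Each library held between 7621456 and 10108413 counts over 16868 genes, of which 9936 passed a filter on low counts and were tested. Levels are given as CPM, the count scaled to a common library size with TMM factors, and a library's limit for a count of 0, taken as 3 counts, lay between 0.298 and 0.394 CPM. The CNS label was matched by its defining markers in all 6 libraries: the neuronal gene elav had 860 to 1190 CPM, the glial gene repo 72.7 to 95.8 CPM and the neuroblast gene dpn 48.8 to 63.7 CPM. In bulk samples, fewer cells of a type and less RNA per cell cannot be told apart.

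One library went against its label. The library labelled XX replicate 1 held 27 counts of the Y-linked Suppressor of Stellate repeats, where XX replicate 2 held 0. The roX RNAs, noncoding RNAs of the male dosage compensation complex, set it apart too. For lncRNA:roX2 the 4 XXY libraries held 0 to 2 counts, while the library labelled XX replicate 1 held 34 and XX replicate 2 held 0. For lncRNA:roX1 the 4 XXY libraries held 531 to 703 CPM, while the library labelled XX replicate 1 held 2090 CPM and XX replicate 2 held 482 CPM. The lower lncRNA:roX1 of XXY rested on this library: its fitted log2 fold change was -1.15 with all libraries and 0.26 without it. This library also had the highest summed salivary gland genes (275 CPM, against 75.0 to 170 CPM in the other 5 libraries). What this library held besides CNS of XX females was not tested, and the main results are given with and without it. XXYohio replicate 1 also stood apart, with the highest summed fat body genes (8520 CPM, against 1460 to 2850 CPM in the other 5 libraries).

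**Figure D1:**
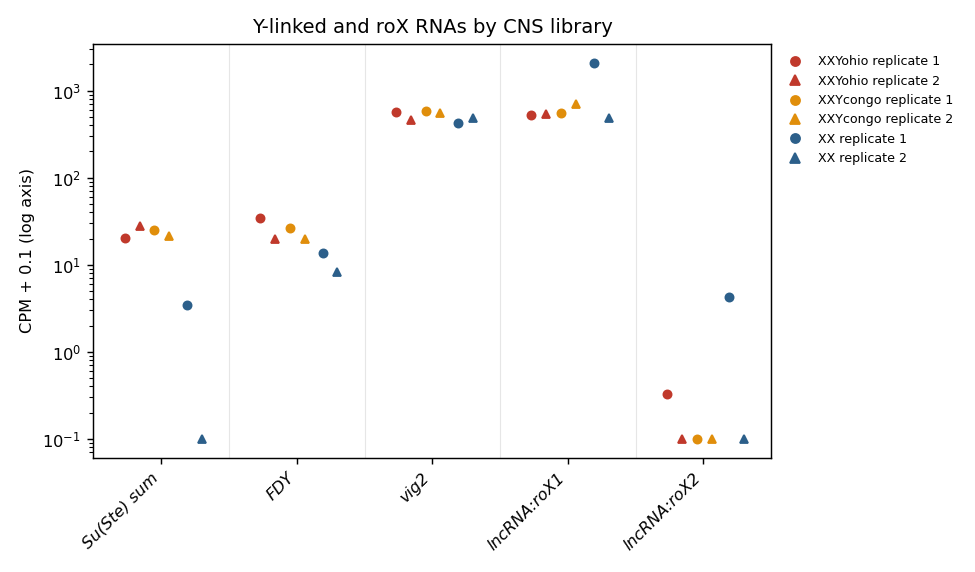
CPM plus 0.1 on a log axis for the summed Suppressor of Stellate repeats, FDY, its parent gene vig2 and both roX RNAs, with 1 point per CNS library. The 4 XXY libraries lie above both XX libraries for the repeats and FDY, and the library labelled XX replicate 1 lies apart for the repeats and for both roX RNAs.

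The first question was whether RNA of the added Y itself was seen. Suppressor of Stellate, a repeat family of 34 near-identical entries that keeps the Stellate repeats of the X silent in testes, had 20.1 and 28.0 CPM in XXYohio, 24.9 and 21.4 CPM in XXYcongo, and 3.34 and 0 CPM in XX. All 4 XXY libraries lay above both XX libraries, and both Y chromosomes gave like levels, with 24.1 ± 5.56 CPM in XXYohio and 23.2 ± 2.5 CPM in XXYcongo (SD, n = 2 each). Fitted as 1 summed gene with edgeR, the log2 fold change was 3.85 ± 0.86 (SE) with an adjusted p of 0.47. The library labelled XX replicate 1 holds the only counts in XX, 27, and these were among the values that set it apart. Leaving it out sets XXY against 1 library with 0 counts, so no such fit is read for the repeats. Of the 34 entries, 7 passed the filter, and 4 of those had no count in either XX library. Su(Ste):CR42426 had the smallest p of the family, with 23 and 25 counts in XXYohio, 37 and 21 in XXYcongo, and 0 in both XX libraries. That is at least 17.5-fold higher in XXY than the limit of 3 counts over both XX libraries. Single entries of the family share reads and are uncertain.

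The 12 protein-coding Y genes were almost silent. In all 6 libraries 10 of them had 0 counts, and kl-5, a dynein heavy chain of the sperm tail, had 0.0992 CPM in 1 XXYohio library, under the limit. FDY, a Y-linked copy of the autosomal gene vig2, was the exception. FDY had 34.6 and 19.6 CPM in XXYohio, 26.6 and 19.9 CPM in XXYcongo, and 13.5 and 8.21 CPM in XX. Its 4 XXY libraries lay above both XX libraries (log2 fold change 1.21 ± 0.32, edgeR adjusted p = 0.654; 1.61 without the library labelled XX replicate 1). Both XX libraries thus held FDY counts without a labelled Y. Since vig2, with 458 to 591 CPM in XXY and 424 and 491 CPM in XX, is the gene that FDY was copied from, reads may be shared between them. The X-linked Stellate repeats summed to 2.64 and 4.37 CPM in XXYohio, 1.22 and 0.787 CPM in XXYcongo, and 0.124 and 0.998 CPM in XX, and the groups overlapped (edgeR adjusted p = 0.80).

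Across all genes, the mean of both added Y chromosomes differed from XX in 4 genes at an edgeR adjusted p below 0.05, 0.0403% of those tested. ImpE2, CG7906 and CG34193 fell and Lcp3 rose. At an unadjusted p below 0.05, 233 genes were higher and 330 lower. The median log2 fold change over all genes was 0.006. DESeq2 called 11 genes higher and 40 lower. Leaving out either XX library left 1 in that group, which was assumed to vary like the others. ImpE2 and CG7906 stayed among the edgeR calls in both settings. Lcp3 was called in neither, and CG34193 was not called without the library labelled XX replicate 1. Without XX replicate 2 the calls also held several further genes. Among them was lncRNA:roX1, whose lower level rested on the library labelled XX replicate 1.

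ImpE2, an ecdysone-inducible gene of imaginal discs, had 41.4 and 47.5 CPM in XXYohio, 11.2 and 9.71 CPM in XXYcongo, and 181 and 142 CPM in XX. The groups did not overlap, and both XXYcongo libraries lay below both XXYohio libraries. The means were 27.5 ± 19.8 CPM in XXY (SD, n = 4) and 162 ± 27.5 CPM in XX (SD, n = 2). ImpE2 fell by 2.90 ± 0.15 on the log2 scale (SE, edgeR adjusted p = 0.000435). It was called under each omission of 1 library, with log2 fold changes between -3.07 and -2.72, but not with the 4 XXY libraries as 1 group, which puts the gap between the Y chromosomes into the spread (edgeR adjusted p = 0.489). ImpE2 fell with each Y alone, by 1.86 ± 0.18 with Yohio (edgeR adjusted p = 0.0281) and by 3.95 ± 0.20 with Ycongo (edgeR adjusted p = 0.000422). The Y chromosomes also differed from each other for ImpE2: XXYcongo stood 2.09 ± 0.19 below XXYohio on the log2 scale (edgeR adjusted p = 0.0213). It lies at 3L:3510974-3512681 on the minus strand of the BDGP6.54 annotation.

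CG7906, a protein-coding gene for which no role is given here, was nearly silent in XXY. It had 0 and 1 counts in XXYohio, 1 and 0 in XXYcongo, and 1217 and 350 in XX. Per scaled total, XX held 1590 times as much as XXY, with a 95% exact counting interval of 438 to 13100. Its edgeR adjusted p was 0.00467, and 0.022 without the library labelled XX replicate 1. The call was lost without XXYcongo replicate 1 (edgeR adjusted p = 0.11), without XXYcongo replicate 2 (0.12) and with robust dispersion (0.212). Its neighbours on 3L stood in the same order: CG7924 had 2 and 6 counts in XXYohio, 12 and 0 in XXYcongo, and 250 and 67 in XX. CG34244, between them on the other strand, had 0 and 2 counts in XXYohio, 6 and 0 in XXYcongo, and 57 and 30 in XX. These neighbours, named after their values were seen, were not called (edgeR adjusted p = 0.181 and 0.339). The 3 genes do not overlap and lie within 3L:14233469-14238272 on BDGP6.54.

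CG34193, also without a role given here, had 1 and 3 counts in XXYohio, 0 in both XXYcongo libraries, and 240 and 116 in XX. Its mean level was 21.3 CPM in XX, and its edgeR adjusted p was 0.0122. The call was lost without the library labelled XX replicate 1 (0.472) and without either XXYcongo library (0.11 and 0.12, each an edgeR adjusted p). No fitted fold change is read for CG7906 or CG34193, since so few counts in XXY leave it to the prior count of the fit.

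In adult tissues these 3 genes gave no comparison. ImpE2 averaged 0 CPM in each genotype of female body and of ovary. For CG7906 and CG34193 no group mean of either tissue exceeded 0.235 CPM.

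**Figure D2:**
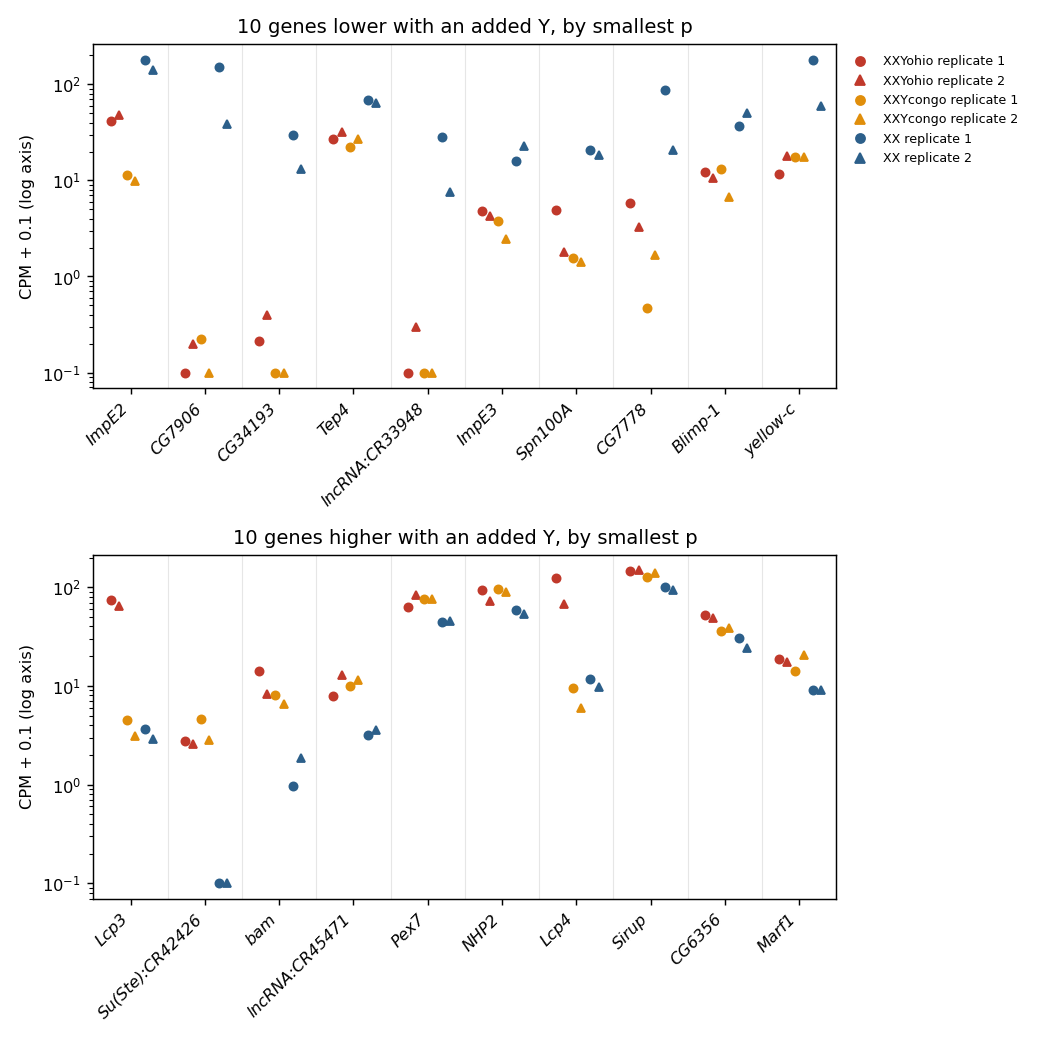
CPM plus 0.1 on a log axis for the 10 lower genes (top) and the 10 higher genes (bottom) with the smallest p and a mean log2 CPM of at least 1, with 1 point per CNS library. For the lower genes all 4 XXY libraries lie below both XX libraries, and for Lcp3 and Lcp4 only the XXYohio libraries lie apart.

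A further 7 lower genes shared an edgeR adjusted p of 0.0521, just short of a call. ImpE3, another ecdysone-inducible gene, had 4.71 and 4.17 CPM in XXYohio, 3.65 and 2.36 CPM in XXYcongo, and 15.7 and 22.7 CPM in XX (log2 fold change -2.39 ± 0.29). Blimp-1, an ecdysone-inducible transcriptional repressor, had 12 and 10.5 CPM in XXYohio, 12.9 and 6.69 CPM in XXYcongo, and 37.0 and 49.8 CPM in XX (-2.05 ± 0.26). For both genes XX replicate 2 was the higher XX library, so the gap was no smaller without the library labelled XX replicate 1, at -2.63 and -2.24. Tep4, a thioester-containing protein of innate immunity, had 26.7 and 32.0 CPM in XXYohio, 22.4 and 26.8 CPM in XXYcongo, and 68.2 and 64.0 CPM in XX. Its libraries agreed closely within each genotype (-1.30 ± 0.15, and -1.25 without the library labelled XX replicate 1). Spn100A, a serpin, had 4.83 and 1.69 CPM in XXYohio, 1.46 and 1.31 CPM in XXYcongo, and 20.5 and 18.5 CPM in XX. The other 3 were lncRNA:CR33948, CG7778 and yellow-c, which differed widely between the XX libraries. The XXY libraries held at most 0.198 CPM of lncRNA:CR33948, and XX replicates 1 and 2 held 28.5 and 7.43 CPM. For CG7778 the XXY libraries held at most 5.75 CPM and XX 87.7 and 20.8 CPM, and for yellow-c at most 17.8 CPM and XX 180 and 59.5 CPM. With DESeq2 all 7 had an adjusted p between 4.06e-08 and 0.00187.

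The labels give no age of the larvae within the third instar, and a part of stage in the differences described here was not tested. Of 25 ecdysone response genes, 23 were tested and 18 lay below 0, with a median log2 fold change of -0.43. In 8 of them the unadjusted p was below 0.05, all lower, which is 34.8% beside 3.32% of all tested genes, and 1 was called. In the same 8 genes all 4 XXY libraries lay below both XX libraries, or 34.8% beside 8.2% of all tested genes. Both counts come from the same libraries, so the second is no separate evidence. The list was chosen with earlier results of these data known, so neither share is independent of the data. The medians per library, on the log2(CPM + 1) scale relative to the XX mean, were -0.41 and -0.45 in XXYohio and -0.26 and -0.31 in XXYcongo, against 0.04 and -0.04 in XX. Without the library labelled XX replicate 1, 16 of 25 tested genes lay below 0 with a median of -0.27, and 4 had an unadjusted p below 0.05, all lower, which is 16% beside 1.21% of all genes tested then.

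Several transcription factors of this cascade stood lower in XXY, none past the edgeR threshold, while EcR, usp and ftz-f1 did not separate the groups. Hr3, which represses early genes and prepares the prepupal response, had 17.1 and 21.2 CPM in XXYohio, 21.9 and 13.5 CPM in XXYcongo, and 43.2 and 50.5 CPM in XX (log2 fold change -1.34 ± 0.22, edgeR adjusted p = 0.166, DESeq2 adjusted p = 0.000309). Hr4 had 59.4 and 30.7 CPM in XXYohio, 105 and 44.0 CPM in XXYcongo, and 107 and 138 CPM in XX. Eip78C had 52.3 and 27.2 CPM in XXYohio, 75.9 and 34.5 CPM in XXYcongo, and 100 and 82.6 CPM in XX. In each of these 3 receptors the groups did not overlap, though XXYcongo replicate 1 came close to XX for Hr4. Hr39 had 96.3 and 83.3 CPM in XXYohio, 93.5 and 76.6 CPM in XXYcongo, and 141 and 118 CPM in XX. Eip75B, an early gene that binds heme, had 294 and 319 CPM in XXYohio, 377 and 290 CPM in XXYcongo, and 464 and 441 CPM in XX. Eip93F, a transcription factor of the larval to adult switch, had 192 and 221 CPM in XXYohio, 300 and 237 CPM in XXYcongo, and 328 and 323 CPM in XX. Hr4, Eip78C, Hr39, Eip75B and Eip93F had log2 fold changes between -1.08 and -0.47 and edgeR adjusted p between 0.64 and 0.799. The hormone's own receptor, EcR, had 139 to 273 CPM in XXY and 227 and 228 CPM in XX, and its partner usp had 52.9 to 61.5 CPM in XXY and 58.6 and 68.9 CPM in XX. The competence factor ftz-f1 had 19.5 to 24.3 CPM in XXY and 21.4 and 17.0 CPM in XX.

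**Figure D3:**
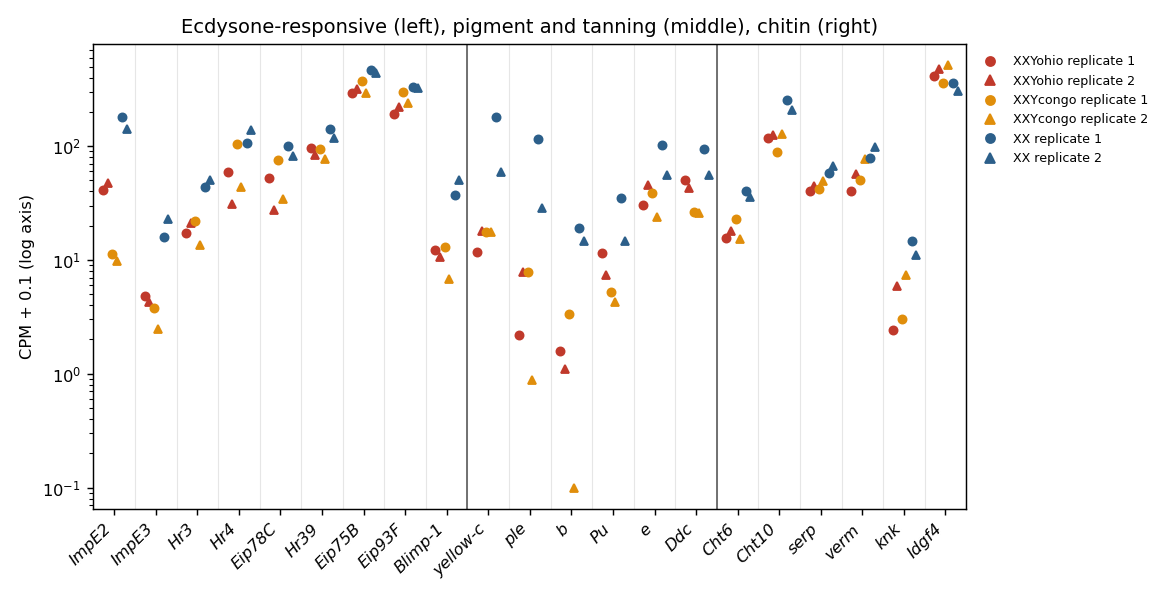
CPM plus 0.1 on a log axis for ecdysone-responsive genes (left), pigment and tanning genes (middle) and chitin genes (right), chosen for the plot after their values were seen, with 1 point per CNS library. All 4 XXY libraries lie below both XX libraries in each gene shown except Idgf4, where they lie above. Other members of these lists, many of them overlapping between groups, are not shown.

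Genes that make and harden cuticle pigments, a list chosen after values were seen, were mixed. Of 13 tested, 8 lay below 0 and 5 above, and 6 had an unadjusted p below 0.05, all lower, which is 46.2% beside 3.32% of all tested genes. With the library labelled XX replicate 1 left out, 9 of 15 lay below 0 and 5 had such a p, all lower, or 33.3% beside 1.21% of all genes tested then. Among the enzymes that turn tyrosine into dopamine, ple, tyrosine hydroxylase, had 2.07 and 7.74 CPM in XXYohio, 7.66 and 0.787 CPM in XXYcongo, and 115 and 28.6 CPM in XX. Ddc, dopa decarboxylase, had 49.8 and 43.0 CPM in XXYohio, 26.1 and 25.7 CPM in XXYcongo, and 93.3 and 55.1 CPM in XX. Pu, which makes the cofactor of tyrosine hydroxylase, had 11.5 and 7.34 CPM in XXYohio, 5.11 and 4.20 CPM in XXYcongo, and 35.1 and 14.6 CPM in XX. All 3 had an edgeR adjusted p of 0.255, and none of their groups overlapped. Next in this pathway are b, which makes beta-alanine, and e, which joins it to dopamine: b had 0 to 3.28 CPM in XXY and 19.1 and 14.7 CPM in XX, and e had 23.6 to 45.2 CPM in XXY and 103 and 55.7 CPM in XX. In the yellow family, yellow-c had 11.6 to 17.8 CPM in XXY and 180 and 59.5 CPM in XX, while yellow-d lay the other way, with 3.94 to 6.85 CPM in XXY and 3.22 and 2.55 CPM in XX.

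The library labelled XX replicate 1 was the higher of the XX libraries for ple, Ddc, Pu, b, e and yellow-c, and its size changes the fold: ple had a log2 fold change of -3.95 with all libraries and -2.64 without it, and yellow-c -2.90 and -1.89. The order of groups held without it, since XX replicate 2 alone lay above each XXY library for these 6 genes. Dopamine neurons also use ple and Ddc. The dopamine transporter DAT, which marks those neurons, had 9.12 to 12 CPM in XXY and 9.40 and 10.6 CPM in XX. The monoamine transporter Vmat had 64.5 and 322 CPM in XXYohio, 79.5 and 136 CPM in XXYcongo, and 155 and 174 CPM in XX. A part of these neurons in the lower ple and Ddc was not tested.

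Chitin genes, a list also chosen after values were seen, split about evenly, with 12 of 22 tested genes below 0. Lower genes with an unadjusted p below 0.05 numbered 5, or 22.7% beside 3.32% of all tested genes, and 1 higher gene, or 4.55% beside 2.35%, had such a p. With that library left out these were 4 lower, or 18.2% beside 1.21%, and none higher, and the list's median was 0.02, against -0.16 with all libraries. The chitinase Cht10 had 117 and 125 CPM in XXYohio, 88.3 and 128 CPM in XXYcongo, and 256 and 208 CPM in XX (log2 fold change -1.02 ± 0.17, edgeR adjusted p = 0.181). Cht6 had 15.4 and 17.9 CPM in XXYohio, 22.9 and 15.2 CPM in XXYcongo, and 40.2 and 35.4 CPM in XX (-1.08 ± 0.21, edgeR adjusted p = 0.255). The chitin deacetylases serp and verm and the chitin-protecting protein knk also lay lower in all 4 XXY libraries than in both XX libraries, with log2 fold changes of -0.50, -0.68 and -1.48. The chitinases Cht2 and Cht11 overlapped between groups, with 54.1 to 60.8 CPM of Cht2 in XXY and 54.7 and 49.0 CPM in XX, and 16.2 to 26.3 CPM of Cht11 in XXY and 17.2 and 19.7 CPM in XX. The growth factor Idgf4, a chitinase-like protein without the enzyme's activity, stood the other way, with 359 to 515 CPM in XXY and 356 and 304 CPM in XX.

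Summed markers of other larval tissues varied between libraries, and their part in these results was not tested. Over 24 larval cuticle genes, which the epidermis makes, the summed level was 980 and 551 CPM in XXYohio, 123 and 33.7 CPM in XXYcongo, and 105 and 91.5 CPM in XX. Of these 24, 7 had no count in any library. The 16 salivary gland genes summed to 75.0 to 170 CPM in XXY and to 275 and 96.3 CPM in XX, and 2 of them had no count in any library. Of these sums, fkh made 68.1 to 94 CPM in XXY and 85 and 91.5 CPM in XX. The others differed widely between the XX libraries. Sgs3 had 0.198 to 33.2 CPM in XXY and 34 and 2.55 CPM in XX, and Sgs7 had 0.198 to 12.3 CPM in XXY and 31.2 and 0.333 CPM in XX. The 10 fat body genes summed to 8520 and 2470 CPM in XXYohio, 1560 and 2400 CPM in XXYcongo, and 2850 and 1460 CPM in XX. Gut enzymes, 41 genes of which 5 had no count, summed to 6.57 to 107 CPM in XXY and to 9.28 and 7.10 CPM in XX. The 12 ring gland genes summed to 1300 to 1570 CPM in XXY and to 1440 CPM in both XX libraries. Most of that sum was lost, with 914 to 1100 CPM in XXY and 1090 and 978 CPM in XX. The ecdysone synthesis enzymes were mixed. Libraries of 1 genotype differed widely for spok and sad: spok had 116 and 4.76 CPM in XXYohio, 8.27 and 17.7 CPM in XXYcongo, and 0.619 and 35.9 CPM in XX. In XX, sad had 2.72 and 39.1 CPM. Both XXYohio libraries were highest for sro, with 21.6 and 11 CPM in XXYohio, 3.53 and 3.02 CPM in XXYcongo, and 2.60 and 3.11 CPM in XX. For dib the levels were 6.95 to 14.9 CPM in XXY and 9.65 and 7.43 CPM in XX. Lower in all 4 XXY libraries was spo, with 0.46 to 1.31 CPM in XXY and 3.34 and 2.33 CPM in XX (edgeR adjusted p = 0.799). Of these lists, none separated the 4 XXY libraries from both XX libraries in its sum. The 16 photoreceptor genes did, with 283 and 368 CPM in XXYohio, 339 and 317 CPM in XXYcongo, and 397 and 394 CPM in XX. Most of that sum was norpA, inaD, rdgA and rdgB. The photoreceptor markers ninaE and trp were nearly absent, with 0 to 2 and 0 to 4 counts per library, so the sum is no measure of photoreceptor tissue. Of their 6 tested genes 5 lay below 0 and 1 above. Imaginal disc genes overlapped in their sum, with 572 to 735 CPM in XXY and 727 and 700 CPM in XX. Of 14 tested, 12 lay below 0 and 2 above, with a median log2 fold change of -0.26.

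The one gene that rose did so with 1 of the Y chromosomes. Lcp3, a larval cuticle protein, had 73.6 and 63.9 CPM in XXYohio, 4.38 and 3.02 CPM in XXYcongo, and 3.59 and 2.77 CPM in XX, and the XXYcongo libraries overlapped those of XX. Its mean log2 fold change was 2.33 ± 0.25 (edgeR adjusted p = 0.0368), and it was not called without any 1 of the 4 XXYcongo and XX libraries (edgeR adjusted p between 0.12 and 0.472). With Yohio alone it rose by 4.43 ± 0.28 (edgeR adjusted p = 0.00221), and with Ycongo the log2 fold change was 0.22 ± 0.29 (edgeR adjusted p = 0.918). XXYcongo stood 4.21 ± 0.27 below XXYohio (edgeR adjusted p = 0.00301). Its neighbour Lcp4 gave the same order, with 125 and 68.3 CPM in XXYohio, 9.36 and 5.90 CPM in XXYcongo, and 11.6 and 9.65 CPM in XX, and XXYcongo stood 3.65 below XXYohio on the log2 scale (edgeR adjusted p = 0.0233). Lcp1 and Lcp2 were also highest in both XXYohio libraries, at 598 and 299 CPM and at 164 and 114 CPM. ImpE2, Lcp3 and Lcp4 were all the genes called between the Y chromosomes, 0.0302% of those tested, all lower in XXYcongo. In all, edgeR called 4 genes for Yohio alone and 1 for Ycongo alone, 0.0403% and 0.0101% of those tested. Both comparisons share the XX libraries.

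Among the other higher genes with the smallest p, none passed the test. The germline differentiation factor bam had 14.0 and 8.24 CPM in XXYohio, 8.03 and 6.43 CPM in XXYcongo, and 0.866 and 1.77 CPM in XX. Its groups did not overlap (log2 fold change 2.74 ± 0.47, edgeR adjusted p = 0.181; 2.33 without the library labelled XX replicate 1). The 3' end of bam overlaps that of CG11854 on the other strand, and the strand used in counting is not given in the sources used here. CG11854 had 324 and 143 counts in XXYohio, 37 and 9 in XXYcongo, and 5 and 24 in XX. For bam these were 122 and 83 counts in XXYohio, 66 and 49 in XXYcongo, and 7 and 16 in XX. CG11854 thus had more counts than bam in both XXYohio libraries and fewer in both XXYcongo libraries. Whether the 2 genes share reads was not tested. In adults, bam averaged 26 ± 3.98 CPM in XXYohio bodies, 26.5 ± 2.67 CPM in XXYcongo bodies and 10.7 ± 1.34 CPM in XX bodies (SD, n = 2 each). In ovaries, where it is known to work, it averaged 51.9 ± 9.28 CPM in XXYohio, 33.7 ± 5.86 CPM in XXYcongo and 46.2 ± 6.29 CPM in XX (SD, n = 2 each). The difference of differences between CNS and ovary for bam was 2.89 ± 0.47 on the log2 scale, not past the threshold (edgeR adjusted p = 0.0749).

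The other higher genes named here were of several kinds. Pex7, the receptor that brings proteins with a second type of signal into peroxisomes, had 62.9 to 84.1 CPM in XXY and 44.7 and 45.2 CPM in XX (log2 fold change 0.73 ± 0.15). NHP2, a protein of the snoRNPs that guide pseudouridylation, had 72.8 to 95.7 CPM in XXY and 58.6 and 53.2 CPM in XX. Sirup, an assembly factor of mitochondrial complex II, had 127 to 148 CPM in XXY and 100 and 94.6 CPM in XX. The noncoding RNA lncRNA:CR45471 had 7.82 to 12.7 CPM in XXY and 3.09 and 3.44 CPM in XX. These 4 were named for their small p, so nothing is read from their separation, and their edgeR adjusted p lay between 0.334 and 0.472.

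For the cells of the CNS themselves, lists of neuroblast and glia genes were centred near 0. The 24 neuroblast genes split 12 above and 12 below 0 with a median of -0.02, and the 15 glia genes had a median of 0.07. The neuroblast list held 1 gene with an unadjusted p below 0.05, brat, a translational repressor that limits self-renewal. It had 1550 to 2050 CPM in XXY and 3210 and 2470 CPM in XX (log2 fold change -0.63 ± 0.17, edgeR adjusted p = 0.654; -0.43 without the library labelled XX replicate 1). Of 28 neuron genes 25 lay below 0 with a median of -0.30, and 3 (ple, fne and Rim) had an unadjusted p below 0.05, or 10.7% beside 3.32% of all tested genes. Only 1 of 28 did without the library labelled XX replicate 1, or 3.57% beside 1.21%. Of the 3, ple is also among the pigment genes above. The medians of the neuron list differed among the XXY libraries, with -0.70 and 0.14 in XXYohio and -0.49 and -0.33 in XXYcongo. XXYohio replicate 2 did not share the lower level. Rim, an organizer of the presynaptic active zone, had 82.8 and 160 CPM in XXYohio, 97.4 and 117 CPM in XXYcongo, and 191 and 163 CPM in XX.

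Cell cycle genes leaned the other way. Of 39 tested, 36 lay above 0 with a median of 0.24, and 4 had an unadjusted p below 0.05, all higher, which is 10.3% beside 2.35% of all tested genes. In 9 of them all 4 XXY libraries lay above both XX libraries, beside 7.73% of all tested genes. The replication helicase subunit Mcm5 had 156 and 121 CPM in XXYohio, 135 and 141 CPM in XXYcongo, and 107 and 103 CPM in XX. The licensing inhibitor geminin had 62.9 to 75.9 CPM in XXY and 48.5 and 57.3 CPM in XX. Here too XXYohio replicate 2 stood nearest to XX: the medians per library were 0.37 and 0.00 in XXYohio and 0.30 and 0.23 in XXYcongo. None of the 39 was called, and without the library labelled XX replicate 1 none had an unadjusted p below 0.05, with 35 of 39 above 0.

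**Figure D4:**
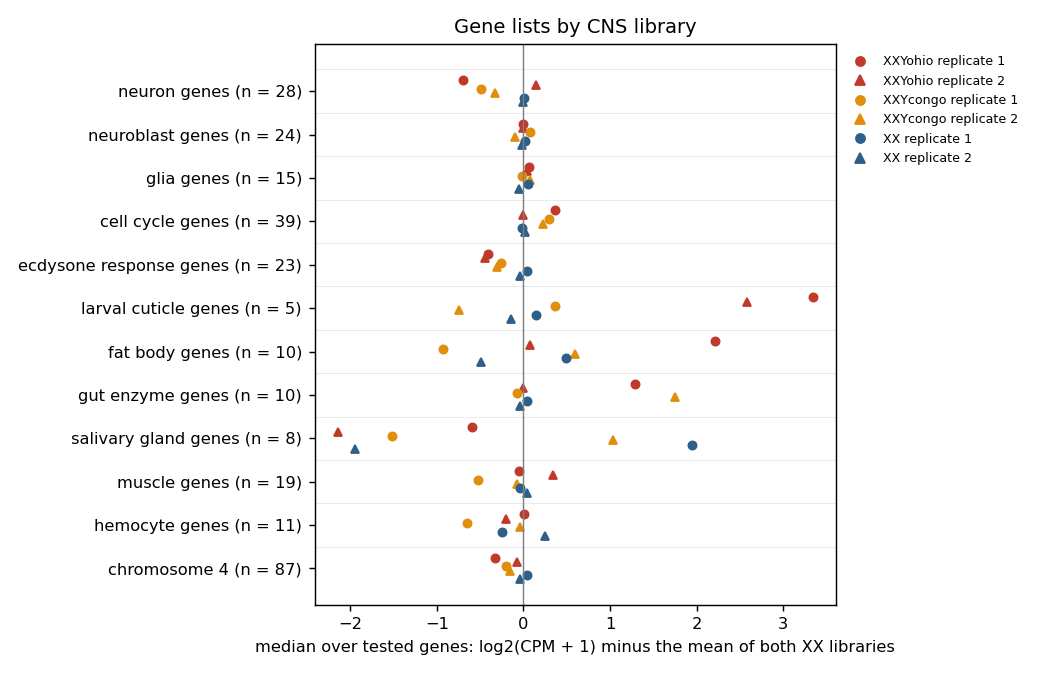
Median over the tested genes of each list, and of chromosome 4, of log2(CPM + 1) minus the mean of both XX libraries, with 1 point per CNS library. For ecdysone response genes and chromosome 4 all 4 XXY libraries lie left of both XX libraries, while XXYohio replicate 2 joins XX for neuron and cell cycle genes and tissue lists scatter.

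Since the Y is heterochromatin, genes for heterochromatin proteins and genes near it were also described. Of 30 tested genes for heterochromatin proteins, 18 lay above 0 with a median of 0.07. Su(var)3-9, the histone H3 lysine methyltransferase of heterochromatin, had 103 and 68.3 CPM in XXYohio, 68.1 and 68.8 CPM in XXYcongo, and 51.2 and 49.9 CPM in XX. Its groups did not overlap (log2 fold change 0.60 ± 0.18, edgeR adjusted p = 0.799). The 500 tested genes nearest to the centromere ends, 100 of each large arm, had a median of -0.02 with 268 below 0.

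Chromosome 4, a small chromosome that is largely packed as heterochromatin yet carries active genes, leaned lower in XXY. Of 87 tested genes 75 lay below 0, or 86.2%, beside 51.6% on the X chromosome, 47.9% on chromosome 2 and 48.5% on chromosome 3. The median log2 fold change was -0.20, with -0.23 for Yohio and -0.18 for Ycongo against the same XX libraries. In 8 genes the unadjusted p was below 0.05, all lower, which is 9.2% beside 3.32% of all tested genes, and none was called. In 28 genes all 4 XXY libraries lay below both XX libraries and in 2 above, beside 8.2% and 7.73% of all tested genes. Per library the median was -0.33 and -0.08 in XXYohio and -0.20 and -0.15 in XXYcongo, against 0.04 and -0.04 in XX. Without the library labelled XX replicate 1, 70 of 88 lay below 0 with a median of -0.17, but only 1 had an unadjusted p below 0.05, or 1.14% beside 1.21% of all genes tested then. Over all omissions of 1 library the median lay between -0.26 and -0.13.

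Among the chromosome 4 genes with the smallest p, Cals, a calsyntenin of synapses, had 316 and 370 CPM in XXYohio, 360 and 393 CPM in XXYcongo, and 495 and 452 CPM in XX (log2 fold change -0.40 ± 0.13). The kinase CaMKII had 274 and 289 CPM in XXYohio, 311 and 342 CPM in XXYcongo, and 362 and 384 CPM in XX (-0.30 ± 0.12). The transcription factor Sox102F had 50.7 to 69.7 CPM in XXY and 76.3 and 84.5 CPM in XX (-0.43 ± 0.15). All 3 had an edgeR adjusted p of 0.799.

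**Figure D5:**
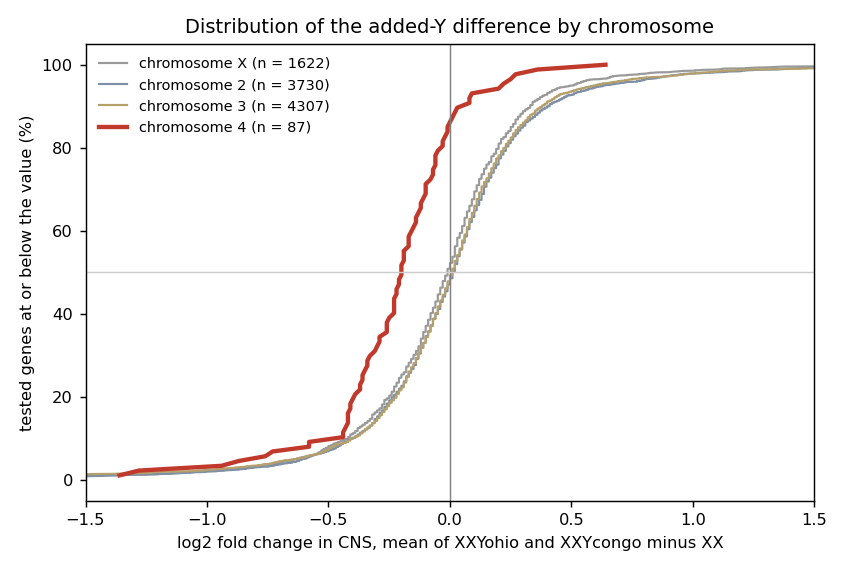
Cumulative share of tested genes (%) by their log2 fold change in the CNS, the mean of XXYohio and XXYcongo minus XX, with 1 line per chromosome. The line of chromosome 4 runs left of the others and crosses 50% at -0.20, where the others cross near 0.

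The same chromosome was set beside the adult tissues, which have XX libraries of their own. In ovaries 72 of 79 tested chromosome 4 genes lay below 0 with a median of -0.65, and in female bodies 45 of 88 did with a median of -0.02. As differences of differences, the chromosome's median was -0.28 for CNS minus body and 0.45 for CNS minus ovary.

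Gene by gene, the response of the CNS was then set against those of body and ovary. For CNS minus body edgeR called 0 of 11396 genes, with 874 at an unadjusted p below 0.05 and 19 called by DESeq2. For CNS minus ovary it called 1 of 10526 genes, 0.0095%, where DESeq2 called 60. That gene was Hsp70Bb, a copy of the inducible heat shock protein. In the CNS, Hsp70Bb had 8.51 and 7.05 CPM in XXYohio, 12.6 and 11.4 CPM in XXYcongo, and 6.93 and 6.10 CPM in XX. In ovaries it averaged 4.23 ± 1.02 CPM in XXYohio, 4.56 ± 1.07 CPM in XXYcongo and 28.3 ± 3.40 CPM in XX (SD, n = 2 each). The difference of differences was 3.28 ± 0.42 on the log2 scale (edgeR adjusted p = 0.0462), and over omissions of 1 library the edgeR adjusted p lay between 0.0145 and 0.487, the highest without the library labelled XX replicate 1 of the CNS. Hsp70 copies are near-identical, so reads may be split between them. Its copy Hsp70Ab had 7.47 and 6.35 CPM in XXYohio, 16.2 and 17.5 CPM in XXYcongo, and 5.94 and 4.44 CPM in XX in the CNS, and did not pass the test there (edgeR adjusted p = 0.654). For the adult tissues alone, edgeR called 0 of 10459 genes in bodies, with 992 at an unadjusted p below 0.05 and 15 called by DESeq2, and 19 of 8829 in ovaries, or 0.215%.

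The authors' deposited tables give more calls for each Y alone than edgeR did here, but they come from DESeq2 and from other sets of tested genes. At an adjusted p below 0.05, the authors' deposited table for Yohio holds 43 higher and 46 lower genes among 10121 with an adjusted p. The authors' deposited table for Ycongo holds 13 higher and 131 lower among 9277. DESeq2 as run here also called more genes for each Y than edgeR, as given below. For ImpE2 the authors' deposited tables give log2 fold changes of -1.76 with Yohio and -3.64 with Ycongo, both with adjusted p-values far below the threshold (1.03e-14 and 3.85e-66). Another of the authors' deposited tables combines both comparisons over 13133 genes, and in all of them its fold change was the mean of both and its statistic that of Fisher's method within 1%, which joins p-values without regard to direction and treats comparisons that share the XX libraries as independent. For Lcp3 the authors' deposited tables give 4.00 with Yohio and 0.15 with Ycongo (adjusted p 2.53e-51 and 0.972), and a combined p of 2.22e-53.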

How the data were processed

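Each deposited file holds raw read counts for 16868 FlyBase genes, made by the authors without normalization, per the labels from poly(A) RNA sequenced from both ends at 150 bp. The submitters' processing notes name Bowtie2, SAMtools, Trim Galore, DESeq2 1.8.1 and R 3.2.3. For the build, the counter and the strand the sources used here name none. The deposited tables hold the authors' log2 fold changes and p-values, per the file headers, and a combined score, Fisher's statistic, made by the authors from both comparisons. They are quoted only where named; their "cs" tables were read as Yohio. Symbols and positions of 16649 genes come from Ensembl BDGP6.54, matched by ID, and 18 of the list entries had no match, so they were not analysed here. In 88 sets, 186 genes had identical counts in all 6 CNS libraries, and such copies are uncertain.

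Genes were tested in edgeR 4.0.16 under R 4.3.3 (filterByExpr minimum count 10, TMM, quasi-likelihood tests, 3 residual degrees of freedom, Benjamini-Hochberg adjustment over all tested genes, threshold 0.05). The contrast was the mean of XXYohio and XXYcongo minus XX. Differences from body and ovary were fitted on 12 libraries. A single value of 4 against 2 libraries cannot give an exact permutation p below 0.0667, so no such test was made. Simulated counts of this design were used to check the fit. Members and gene lists were chosen with earlier results of these data known, and 5 lists after values were seen.

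Genes were named by rule: up to 15 called per direction whose groups did not overlap, the 10 with the smallest p per direction where fewer than 10 were called (both with a mean log2 CPM of at least 1), the 12 Y genes, up to 3 per list by p, and up to 5 called per direction in each difference and between the Y chromosomes. Others are examples of lists, markers or neighbours. Alternatives were RLE scaling, no filter, DESeq2 1.42.0, replicate block, 4 XXY libraries as 1 group, no mitochondrial genes, each library left out, and, added later, robust dispersion. Limits for 0 and 95% intervals cover counting error only. Same-numbered replicates did not deviate together (correlations 0.12, -0.07 and -0.21), so numbers were not taken as pairs.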

Additional observations from a re-analysis of the deposited data

Results flagged for a closer look

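Among the 20 genes with the smallest p in either direction, 4 had 1 XXY library far from the other 3. The rule singles out 5% of groups by chance where the 4 values share 1 distribution. Libraries of XXYohio and XXYcongo, or values of a few counts, need not do so, and no excess is read. Su(Ste):CR42426 had 4.5 CPM in XXYcongo replicate 1, the highest. lncRNA:CR33948 had 0.198 CPM in XXYohio replicate 2 and 0 in the other XXY libraries, but that value is 2 counts, under the limit of 3 counts, and cannot be told from 0. Spn100A had 4.83 CPM in XXYohio replicate 1, the highest, and yellow-c had 11.6 CPM in that library, the lowest. None of these values reached the XX libraries of its gene.

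The response differed between the Y chromosomes by the edgeR test of XXYcongo minus XXYohio for Lcp3 (log2 fold change -4.21, adjusted p = 0.00301), Lcp4 (-3.65, adjusted p = 0.0233) and ImpE2 (-2.09, adjusted p = 0.0213). Over omissions of 1 library, the edgeR adjusted p lay between 0.000291 and 0.13 for Lcp3, 0.00092 and 0.7 for Lcp4, and 0.000974 and 0.652 for ImpE2. Hsp70Bb differed between CNS and ovary, with a difference of differences of 3.28 on the log2 scale (edgeR adjusted p = 0.0462).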

How the results depend on the processing

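With 2 libraries per genotype, calls changed with the processing. The mean contrast called 4 genes, RLE scaling also 4, no filter 112, DESeq2 51, replicate block 14, robust dispersion 10 and the 4 XXY libraries as 1 group 3. Yohio alone called 4 genes, 264 without a filter and 44 with DESeq2. Ycongo alone called 1, 90 without a filter, 41 with DESeq2, 5 with the replicate block and 2 without mitochondrial genes. XXYcongo minus XXYohio called 3, 236 without a filter, 54 with DESeq2 and 9 with the replicate block. Leaving out each library in turn gave 1 to 44 genes for the mean contrast (44 without XXYohio replicate 2, 22 without XXYohio replicate 1), 0 to 110 for Yohio, 0 to 25 for Ycongo and 0 to 185 between them. Summed Suppressor of Stellate passed the threshold without a filter (3.86), in a range of 2.82 to 10.69. Its fit without the library labelled XX replicate 1 is not read, since XX then has 0 counts. Where 1 library of a genotype was left, it was assumed to vary like the others. Among the single genes refitted under each alternative, only lncRNA:roX1 changed sign, to 0.26 without the library labelled XX replicate 1 (-1.85 without XX replicate 2). List medians moved by more than the spread between XXY libraries in 39 of the omissions of 1 library and not in 189. Salivary gland genes ranged from -3.70 to 3.15 (-1.83 with all libraries, 3.15 without the library labelled XX replicate 1) and ring gland genes from -0.10 to 0.81 (0.11 with all). No list median moved so under RLE scaling or the replicate block. For other tissues, bodies called 104 genes without a filter and 15 with DESeq2. Ovaries called 203 without a filter, 109 with DESeq2, 69 with the replicate block, 2 with the XXY libraries as 1 group, 4 without mitochondrial genes, and 0 to 300 with 1 library left out. CNS minus body called 1 without a filter, 19 with DESeq2 and 0 to 1 with 1 library left out. CNS minus ovary called 138, 60 and 0 to 18 in the same settings, and 0 with the replicate block. The causes were not tested.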

Other observations

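Genes for ribosomes and for energy metabolism gave small differences, none of them called by edgeR. Of 81 tested genes for cytoplasmic ribosomal proteins, 64 lay above 0 with a median log2 fold change of 0.13, beside 0.006 for all genes, and without the library labelled XX replicate 1 this was 46 of 81 with a median of 0.05. At an unadjusted p below 0.05, 3 of the 81 were higher, or 3.7% beside 2.35% of all tested genes, and 1 was lower. RpL38 stood the other way, with 555 and 455 CPM in XXYohio, 388 and 735 CPM in XXYcongo, and 731 and 937 CPM in XX, and the groups overlapped by a single pair of libraries. Of 72 nuclear genes for oxidative phosphorylation, 52 lay above 0 with a median of 0.09, and at an unadjusted p below 0.05, 3 were higher, or 4.17% beside 2.35%, and 1 was lower. ATPsynD, a subunit of the ATP synthase, had 218 to 261 CPM in XXY and 170 and 188 CPM in XX. Of the mitochondrially encoded genes 17 of 26 lay below 0, with none at an unadjusted p below 0.05 and a median of -0.14, which ranged from -0.32 to 0.16 over omissions of 1 library.

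Enzymes of detoxification did not move as a list. Of 25 tested glutathione S-transferase genes 14 lay above 0, and GstT2 had 12.8 and 12.1 CPM in XXYohio, 9.24 and 11.9 CPM in XXYcongo, and 7.42 and 5.21 CPM in XX (edgeR adjusted p = 0.799). Of 32 neuropeptide genes 17 lay above 0 with a median of 0.01.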
